A study of Mus musculus with 16 samples.

Results

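The 42 genes described here copy DNA or divide the cell. They are 21 genes of DNA replication and S phase and 21 genes of mitosis, taken by name from the 29535 genes in the deposited table, with no threshold on a measured value. All 42 were found, and all 42 were tested, since each had a mean on the linear scale (2 to the power of the deposited value) of 10 or more, as did 16895 genes in all. RNA came from prostates of mice aged 12 months on a hybrid 129/SvImJ and C57Bl/6J background, and poly-A selected RNA was sequenced. A single gene was either intact (wild type, +/+) or mutant on both copies (-/-), and treatment was vehicle or finasteride, which inhibits the 5-alpha-reductases that convert testosterone to dihydrotestosterone. Each genotype had 3 libraries on vehicle and 5 on finasteride. Nothing in the labels gives the dose or length of treatment, or states whether libraries come from different animals, and p-values therefore measure only the spread between these samples. The labels name no Cre or promoter for the mutation and give the tissue as prostate, in which fewer cells of a type and less RNA per cell cannot be told apart.

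A dividing cell first copies its DNA and then separates the copies. In G1 the loading factors Cdc6 and Cdt1 place the ring of Mcm2 to Mcm7 on origins of replication, and in S phase Cdc45 and the GINS proteins, among them Gins1 and Gins2, join that ring to make the active helicase, with Mcm10 acting at the step that starts it. Pola1 and Prim1 belong to the polymerase that lays down primers, Pcna is the sliding clamp, and Rrm1, Rrm2 and Tyms supply deoxynucleotides. E2f1 is a transcription factor that turns many of these genes on, and Ccne1 and Ccne2 encode the E cyclins that act at entry into S phase. Later, Cdk1 with Ccna2, Ccnb1 or Ccnb2 drives mitosis, Plk1, Aurka and Aurkb are mitotic kinases, and Bub1, Bub1b and Ttk act in the spindle checkpoint. Cdc20 activates the ligase that ends mitosis, Birc5 works beside Aurkb in one complex, and Kif11, Kif20a, Cenpe, Cenpf, Nusap1 and Tpx2 build the spindle or attach chromosomes to it. Foxm1 is a transcription factor for mitotic genes, Top2a untangles DNA, and Mki67 encodes the Ki-67 protein widely used as a mark of cycling cells. In the prostate the secretory epithelium depends on androgen and turns over slowly in the adult.

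Replication and mitosis genes are known to carry different promoter elements, so the windows from 250 bases before to 50 after the start site, from RefSeq on build GRCm38.p6, were searched on both strands. The searched letters were those of E2F sites (TTTCCCGC, TTTCGCGC, TTTGCCGC or TTTGGCGC), of the cell cycle genes homology region or CHR (TTTGAA or TTCGAA), and CCAAT. The table of windows matched 17 of the 21 replication genes and 16 of the 21 mitosis genes, leaving Mcm4, Gins1, Gins2, Ccne2, Ccna2, Aurkb, Kif20a, Tpx2 and Foxm1. E2F letters were in 7 of the 17 replication genes (41.2%), namely Mcm3, Mcm5, Mcm6, Mcm7, Cdc6, Cdt1 and Pola1, in 1 of the 16 mitosis genes (6.25%), Cdk1, and in 2.6% of the 27025 genes of the table. CHR letters were in 3 of 17 replication genes (17.6%), 12 of 16 mitosis genes (75.0%) and 21.7% of all genes. CCAAT was in 12 of 17 (70.6%), 14 of 16 (87.5%) and 41.1%. The 6 printed sequences show the 150 bases before the start, for members whose levels are described later. Matched letters of any of the 3 elements, on either strand, are in capitals where the whole match lies within the printed bases. They were chosen to show the elements, so they are examples rather than a sample. In Mcm5 and in Mcm6 a pair of E2F words on opposite strands share bases. The first word of the Mcm5 pair begins before the printed bases, so it is not marked. A match is only these letters in this window.
Mcm5 (chr8:75109359-75109508, plus strand): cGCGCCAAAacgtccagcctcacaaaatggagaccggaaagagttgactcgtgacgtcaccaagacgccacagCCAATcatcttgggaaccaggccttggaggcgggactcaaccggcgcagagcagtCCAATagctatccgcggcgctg
Mcm6 (chr1:128359706-128359855, minus strand): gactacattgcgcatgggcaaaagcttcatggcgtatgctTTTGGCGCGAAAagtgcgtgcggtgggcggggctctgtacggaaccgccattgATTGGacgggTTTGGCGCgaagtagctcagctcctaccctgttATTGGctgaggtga
Cdk1 (chr10:69352913-69353062, minus strand): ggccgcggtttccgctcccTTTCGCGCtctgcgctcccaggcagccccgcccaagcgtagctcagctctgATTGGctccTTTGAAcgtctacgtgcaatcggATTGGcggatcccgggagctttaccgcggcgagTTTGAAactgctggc
Mki67 (chr7:135716380-135716529, minus strand): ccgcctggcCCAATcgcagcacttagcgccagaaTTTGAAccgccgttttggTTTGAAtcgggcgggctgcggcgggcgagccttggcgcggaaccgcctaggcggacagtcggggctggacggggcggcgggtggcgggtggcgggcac
Top2a (chr11:99024190-99024339, minus strand): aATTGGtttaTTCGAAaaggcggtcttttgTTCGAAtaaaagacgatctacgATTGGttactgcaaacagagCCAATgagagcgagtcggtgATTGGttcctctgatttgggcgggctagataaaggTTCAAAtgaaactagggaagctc
Cdc20 (chr4:118437344-118437493, minus strand): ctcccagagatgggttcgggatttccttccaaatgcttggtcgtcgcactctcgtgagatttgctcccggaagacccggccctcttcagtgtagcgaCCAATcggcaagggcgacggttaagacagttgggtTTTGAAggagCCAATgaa
In these windows Mcm5 and Mcm6 hold E2F and CCAAT letters and no CHR letters. Mki67, Top2a and Cdc20 hold CHR and CCAAT letters and no E2F letters. Cdk1 holds all 3.

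Expression is given as the deposited log2 values, so a difference of 1 is a doubling. Low values in this table appear drawn toward their mean, which would understate the changes of weakly expressed members, and levels are compared here only between libraries for the same gene. A gene is said to be higher or lower, or to rise or fall, where its limma p-value adjusted over all 16895 genes was under 0.05, and ± after a difference is its standard error. The comparisons share groups with each other, since wild type on finasteride enters both the drug comparison in wild type and the genotype comparison on finasteride, so each is given for itself. Before any result, 5 libraries need naming. Wild type vehicle 3, wild type finasteride 4, mutant vehicle 3 and mutant finasteride 3 and 4 each lay close to a weighted average of a pair of fellow libraries within their group (residual SD 0.0764 to 0.0968 on the log2 scale, against 0.121 to 0.402 in the other 11). If such libraries are not independent the p-values are too small, so the counts of members called are also given over the 11 others. Library 2 of wild type on finasteride differed from the other 4 of its group in mitosis genes and is described in its own paragraph. Scaling matters as well: forcing all libraries to 1 distribution of values (quantile normalization) changed counts and some directions, and those counts stand beside each result. The members' mean levels lie between 4.13 and 9.14, and under that scaling the 8733 tested genes in this range moved together, for example from a median of 0.25 to -0.24 in the interaction.

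Marker genes of other cell types and library totals differed between the groups. The luminal markers Krt8, Krt18, Krt19, Cd24a, Epcam and Cdh1 were present in every group, with sums of 15.8 to 16.4 on the log2 scale. Summed B and plasma cell markers were 11.1 to 11.7 in the mutant on finasteride, 6.20 to 6.54 in the mutant on vehicle, 6.08 to 6.89 in wild type on finasteride and 7.88 to 7.91 in wild type on vehicle. T and NK cell markers were 9.33 to 10.1 in the treated mutant, 8.33 to 8.41 in the mutant on vehicle and 7.02 to 7.79 in wild type, and macrophage markers were 12.4 to 13.1 in the treated mutant, 11.5 to 11.6 in the mutant on vehicle, 11.2 to 11.8 in treated wild type and 12.1 to 12.2 in wild type on vehicle. Adipocyte markers were 6.13 to 9.64 in treated wild type and 8.38 to 10.9 elsewhere. Basal markers were 12.2 to 12.8 in the mutant groups and 11.5 to 12.0 in wild type, and fibroblast markers were 14.4 to 14.6 in wild type on vehicle, 13.6 to 14.05 on finasteride, 13.6 to 13.8 in the mutant on vehicle and 14.003 to 14.3 on finasteride. Seminal vesicle markers ranged from 9.40 to 21.7 over the libraries, with 9.82 to 21.7 within wild type on vehicle. The log2 of each library's total was 24.07 to 24.16 in the treated mutant and 24.31 to 24.55 in the others. The part of these cells and totals in the members' differences was not tested.

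**Figure D1:**
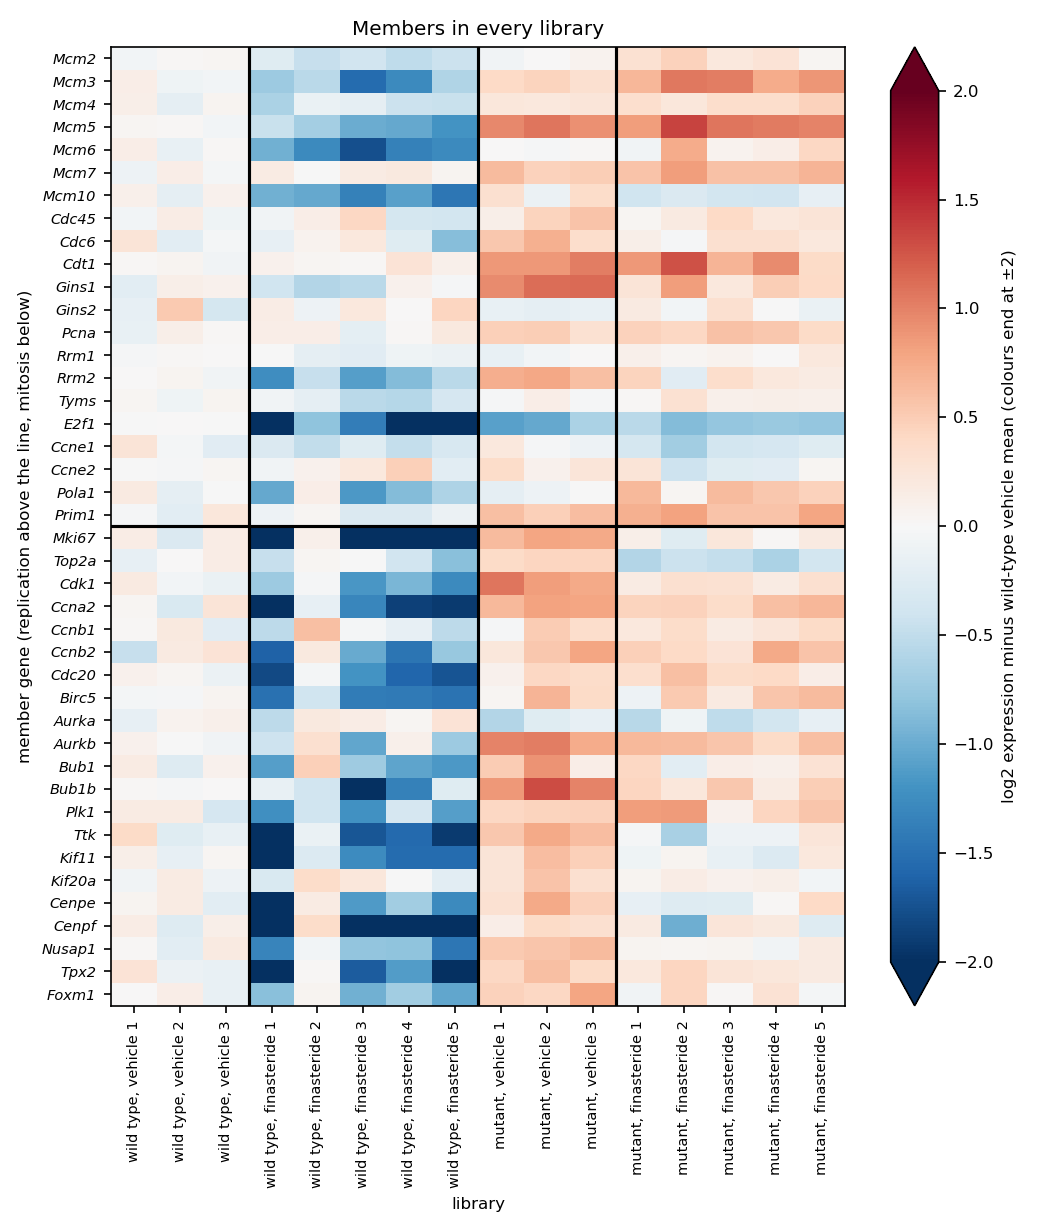
Log2 level of each of the 42 members in each of the 16 libraries, minus the member's mean over wild type on vehicle (colour scale in log2 units; rows are genes, columns are libraries by group). Library 2 of wild type on finasteride is pale over most mitosis rows, where the other 4 treated wild-type libraries are low.

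Over all 16 libraries, genes of both kinds were lower in wild-type prostate on finasteride than on vehicle. Over the 11 libraries only 1 mitosis gene was lower, a count that does not exceed the background of 5.00%. Of the 21 replication genes 10 fell and none rose, and of the 21 mitosis genes 13 fell and none rose. No member of either list was higher at an unadjusted p under 0.05, a count with no share of all genes beside it. Among all tested genes 21.9% fell and 17.9% rose, so the members that fell (47.6% of replication and 61.9% of mitosis genes) exceed the background share. Of the 8733 genes in the members' range of levels 26.7% fell and 12.9% rose. The median difference was -0.34 for replication and -0.89 for mitosis genes, and -0.03 for all genes. The replication genes that fell were Mcm2, Mcm3, Mcm4, Mcm5, Mcm6, Mcm10, Rrm2, Pola1, Tyms and E2f1. Mitosis genes that fell were Birc5, Kif11, Ccna2, Mki67, Cdc20, Cdk1, Nusap1, Ttk, Tpx2, Plk1, Cenpf, Foxm1 and Ccnb2. Adipocyte marker sums differed over the same libraries, at 6.13 to 9.64 on finasteride and 10.3 to 10.9 on vehicle, with 5 of 5 markers lower. So did the sums of macrophages (6 of 8 markers lower), fibroblasts (5 of 7), B and plasma cells (3 of 6) and T and NK cells (2 of 8). Basal sums did too, with 2 of 5 tested markers lower and 1 higher. None of these ranges overlapped between treatments.

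Within replication the genes that fell included 5 of the 6 ring subunits, Mcm10 and E2f1, while neither loading factor passed the test. Mcm6 was at 8.74, 8.46 and 8.64 in the 3 vehicle libraries and 7.65, 7.34, 6.85, 7.26 and 7.35 in the 5 on finasteride. Every treated library was below every vehicle library, with a difference of -1.32 ± 0.18 (adjusted p = 8.94e-05). Mcm10 was at 6.30, 6.01 and 6.27 on vehicle and 5.23, 5.16, 4.85, 5.11 and 4.75 on finasteride, again without overlap (-1.17 ± 0.15, adjusted p = 7.92e-05). For Mcm5 the values were 6.85, 6.84 and 6.75 against 6.37, 6.13, 5.83, 5.79 and 5.62, a difference of -0.87 ± 0.15 (adjusted p = 0.000612). E2f1 had nearly equal values on vehicle, 6.76, 6.79 and 6.77, and scattered ones on finasteride, 4.06, 5.96, 5.39, 4.72 and 4.05. The groups did not overlap, and the difference of -1.94 ± 0.34 (adjusted p = 0.000583) was the largest in size among the 42 members. These 4 genes were also lower over the 11 libraries and after quantile normalization. Mcm3 (-0.93 ± 0.20), Rrm2 (-0.84 ± 0.17) and Mcm2 (-0.40 ± 0.09) fell without overlap between the groups. Mcm4 (-0.37 ± 0.11), Pola1 (-0.71 ± 0.23) and Tyms (-0.34 ± 0.12) fell with overlapping libraries.

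The other replication genes did not pass the test in treated wild type. Pcna, the clamp, was at 7.72, 7.99 and 7.88 on vehicle and 7.99, 8.004, 7.66, 7.88 and 8.06 on finasteride (0.06 ± 0.10, adjusted p = 0.677), with overlapping groups. The helicase subunit Mcm7 differed by 0.11 ± 0.09 while its partners in the ring fell. The loading factors Cdt1 (0.10 ± 0.15) and Cdc6 (-0.19 ± 0.21), the helicase cofactors Cdc45 (-0.05 ± 0.18), Gins1 (-0.29 ± 0.18) and Gins2 (0.14 ± 0.18), and the primase Prim1 (-0.15 ± 0.11) did not pass. Nor did the reductase subunit Rrm1 (-0.12 ± 0.07) or the E cyclins Ccne1 (-0.36 ± 0.15, groups not overlapping) and Ccne2 (0.10 ± 0.17). Over 21 replication genes, 8 had every treated library below every vehicle library, where 18.9% of all genes did.

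Mitosis genes had a median difference of -0.89, with 1 treated library apart in many of them. Birc5 was at 5.58, 5.61 and 5.69 on vehicle and 4.14, 5.22, 4.22, 4.21 and 4.16 on finasteride. All 5 treated libraries were lower, library 2 least (-1.24 ± 0.25, adjusted p = 0.00154). The spindle motor Kif11 was at 6.37, 6.09 and 6.29 against 4.18, 5.98, 4.99, 4.70 and 4.71, also without overlap (-1.33 ± 0.28, adjusted p = 0.00201). Mki67 stood at 8.29, 7.85 and 8.29 on vehicle and at 5.70, 8.24, 5.98, 6.13 and 5.83 on finasteride (-1.77 ± 0.41, adjusted p = 0.00376). The other 4 treated libraries, 1 and 3 to 5, were over 1 log2 unit below vehicle and library 2 was among the vehicle values. Ccna2 showed the same layout, 6.05, 5.69 and 6.26 against 3.84, 5.83, 4.69, 4.13 and 4.09 (-1.48 ± 0.33, adjusted p = 0.00267). Foxm1 was at 6.27, 6.38 and 6.12 and 5.43, 6.32, 5.30, 5.56 and 5.22 (-0.69 ± 0.21, adjusted p = 0.0189), again with library 2 at the level of vehicle. Its call was lost without wild-type vehicle library 1 (adjusted p = 0.0584) or 2 (0.0656).

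Further mitosis genes that fell were Cenpf (-1.85 ± 0.54), Ttk (-1.69 ± 0.45), Tpx2 (-1.54 ± 0.42), Cdc20 (-1.27 ± 0.30), Ccnb2 (-0.93 ± 0.32), Nusap1 (-0.89 ± 0.23), Plk1 (-0.86 ± 0.24) and Cdk1 (-0.82 ± 0.21). Top2a was at 8.33, 8.49 and 8.64 on vehicle and 8.02, 8.52, 8.48, 8.10 and 7.65 on finasteride and did not pass (-0.33 ± 0.16, adjusted p = 0.101), with overlap. Cenpe (-1.18 ± 0.46), Bub1b (-0.88 ± 0.37), Bub1 (-0.71 ± 0.32), Aurkb (-0.35 ± 0.24) and Ccnb1 (-0.13 ± 0.23) also missed the threshold, as did Aurka (0.02 ± 0.17) and Kif20a (0.01 ± 0.15). In only 4 mitosis genes, Birc5, Kif11, Plk1 and Bub1b, was every treated library below every vehicle library. Their share of the mitosis list was close to the 18.9% of all genes in which this held. Over the 11 libraries 4 replication genes and 1 mitosis gene, Plk1, were lower, where 5.00% of all genes were. The mitosis count thus does not exceed the background. At an unadjusted p under 0.05 the counts were 7 and 12, and no share of all genes at that threshold is given. After quantile normalization 7 and 8 were lower (16.2% of all genes) and 1 of each list was higher, Ccne2 and Kif20a, while the share of all calls that were higher went from 45.0% to 57.4%. Both medians stayed below 0 under that scaling, at -0.03 for replication and -0.45 for mitosis.

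**Figure D2:**
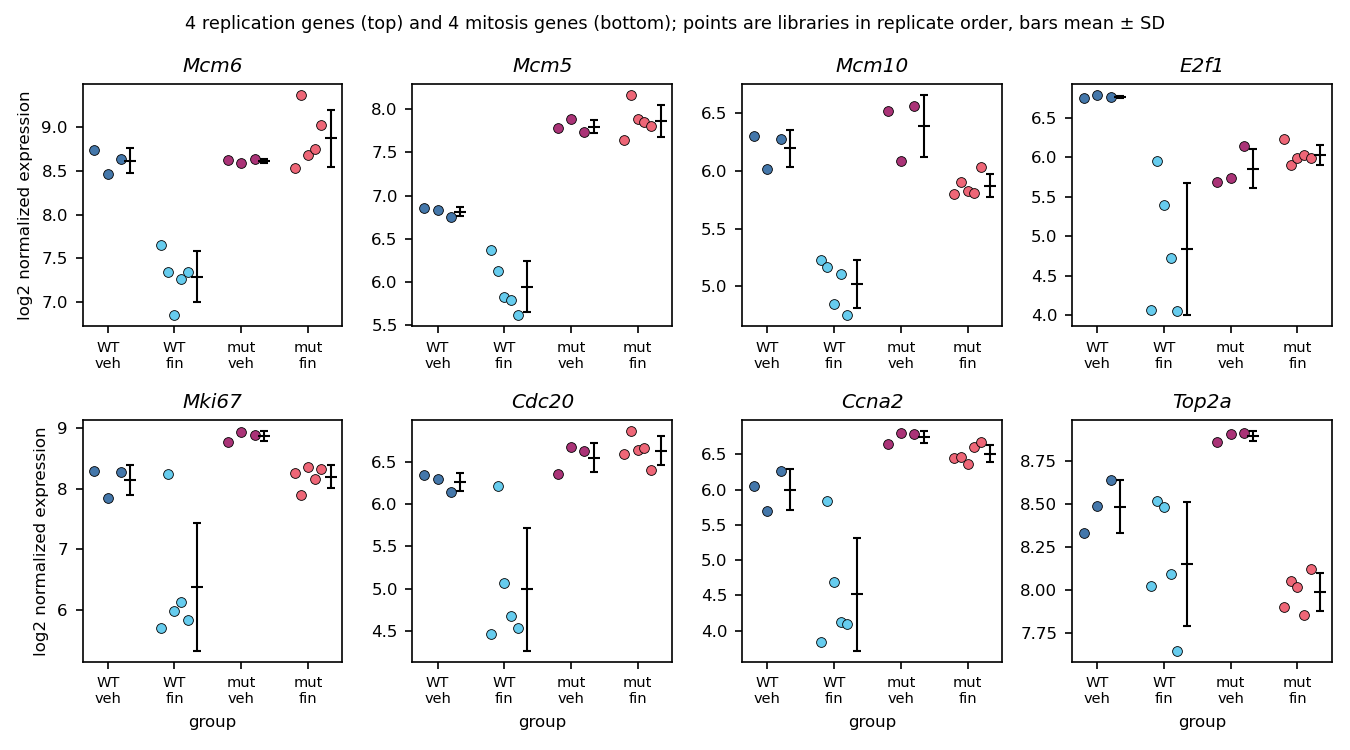
Log2 level of 4 replication genes (Mcm6, Mcm5, Mcm10, E2f1) and 4 mitosis genes (Mki67, Cdc20, Ccna2, Top2a) in each library, by group, with points in order of library number and bars for the mean and SD. Library 2 of wild type on finasteride is point 2 of its group. In Mcm6, Mcm5, Mcm10 and E2f1 it lies with the other treated wild-type libraries or between them and vehicle, and in Mki67, Cdc20 and Ccna2 it lies at the vehicle level.

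In library 2 of wild type on finasteride the 2 kinds of gene parted. Each member was centred on its mean over wild type on vehicle and averaged over its list. The replication average of library 2 was -0.30, and the other 4 treated libraries were between -0.51 and -0.46. Its mitosis average was 0.05, and the other 4 were between -1.49 and -0.997. Library 2 thus lay below vehicle in replication genes, while its mitosis genes lay within the vehicle range of -0.04 to 0.05. It was above the other 4 treated libraries in 18 of 21 mitosis genes and in 6 of 21 replication genes, where this held for 27.8% of all tested genes. Among genes in which the other 4 were all below vehicle, library 2 was within or above the vehicle range in 12 of 16 mitosis genes, 2 of 10 replication genes and 23.8% of all such genes. For Cenpf it was at 6.72 against 3.24 to 4.24 in the other 4 and 6.09 to 6.49 on vehicle. For Mcm6, in contrast, its 7.34 lay inside the range of the other 4, 6.85 to 7.65. Without this library 10 replication and 17 mitosis genes fell, where 24.4% of all genes did, and Mki67 differed by -2.24. The library was singled out by its values in these same mitosis genes, so the mitosis count and difference without it only describe the other libraries.

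Cell type markers of library 2 were mostly those of its group. Its summed adipocyte markers (Adipoq, Plin1, Lep, Fabp4 and Cidec; log2 of the sum) were at 9.64, against 6.13 to 7.18 in the other 4 and 10.3 to 10.9 on vehicle. Luminal markers summed to 16.004 against 16.102 to 16.289, red blood cell markers to 9.47 against 9.52 to 9.57, and testis germ cell markers, of which 4 of 5 are below the filter, to 5.60 against 4.92 to 5.13. Basal, fibroblast, smooth muscle, endothelial, T and NK cell, B and plasma cell, macrophage and seminal vesicle sums lay within the range of the other 4. Whether the adipocyte markers have a part in the mitosis values of this library was not tested.

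**Figure D3:**
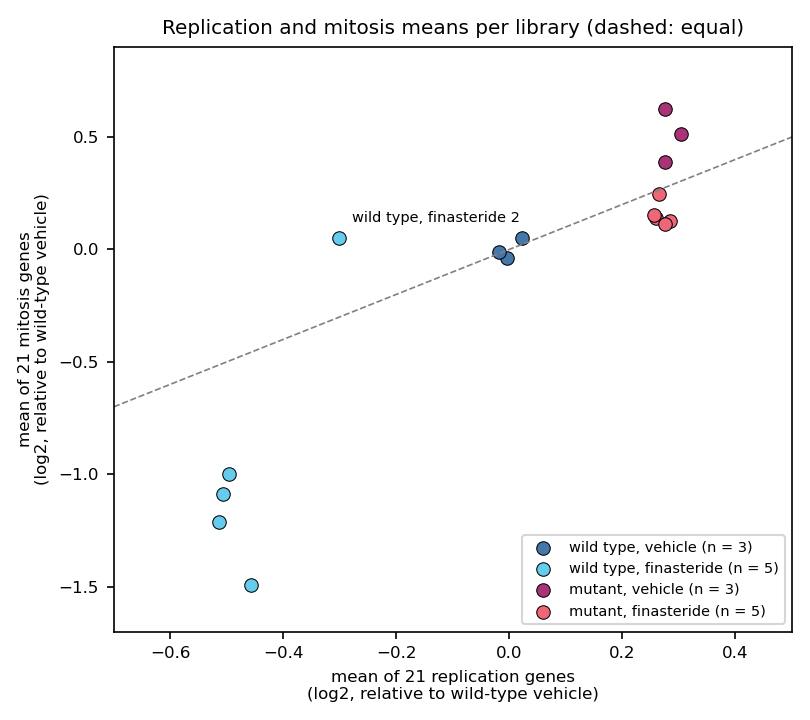
Mean log2 level of the 21 replication genes (x axis) and of the 21 mitosis genes (y axis) in each of the 16 libraries, each gene centred on its mean over wild type on vehicle. Treated wild-type libraries 1, 3, 4 and 5 lie at the lower left (mitosis -1.49 to -0.997), and library 2 lies apart at -0.30 for replication and 0.05 for mitosis.

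On vehicle a set of replication genes was higher in the mutant than in wild type. Of the 21, 7 were higher (Mcm5, Mcm7, Cdt1, Gins1, Prim1, Pcna and Rrm2) and none was lower, a share of 33.3% where 14.3% of all tested genes were higher and 17.5% lower. Of the mitosis genes 2 were higher, Cdk1 and Aurkb, and none was lower, a share of 9.52% that does not exceed the background. At an unadjusted p under 0.05, 8 replication genes were higher and 1, E2f1, was lower, and 7 mitosis genes were higher and 0 lower. No share of all genes stands beside these unadjusted counts. The groups failed to overlap in the upward direction in 11 replication and 15 mitosis genes, where 27.4% of all genes did so. Medians were 0.24 and 0.51, against -0.002 for all genes. Several marker sums differed over the same libraries without overlap. Those of basal cells (3 of 5 tested markers higher) and T and NK cells (5 of 8) were higher in the mutant. Those of fibroblasts (6 of 7 markers lower), macrophages (7 of 8) and B and plasma cells (3 of 6) were lower.

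The genes that rose span the steps of replication. Mcm5 was at 7.78, 7.88 and 7.73 in the mutant, above all 3 wild-type values (0.98 ± 0.17, adjusted p = 0.000458). Gins1 was at 5.84, 6.18 and 6.14 in wild type and 6.9995, 7.17 and 7.18 in the mutant (1.07 ± 0.20, adjusted p = 0.000931). Cdt1 rose from 6.25, 6.28 and 6.15 to 7.10, 7.10 and 7.25 (0.92 ± 0.17, adjusted p = 0.000825). All 3 genes were separated between genotypes by more than their spread. Mcm7 was at 7.89, 8.13 and 7.94 against 8.62, 8.45 and 8.48 (0.53 ± 0.10, adjusted p = 0.000752), and Pcna was at 8.34, 8.36 and 8.17 in the mutant (0.42 ± 0.11, adjusted p = 0.00852). Prim1 (0.57 ± 0.12) and Rrm2 (0.70 ± 0.19) also rose. The factor E2f1 went the other way, at 5.69, 5.75 and 6.14 in the mutant, below all wild-type values, but did not pass (-0.91 ± 0.38, adjusted p = 0.0771).

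Ring subunits were not alike between the genotypes on vehicle. Mcm5 and Mcm7 rose, Mcm3 (0.39 ± 0.22) and Mcm4 (0.23 ± 0.12) did not pass although their groups did not overlap, and Mcm2 and Mcm6 differed by 0.00158 ± 0.0988 and 0.000978 ± 0.196. Cdc6 (0.54 ± 0.23), Cdc45 (0.38 ± 0.20), Ccne2 (0.24 ± 0.20), Mcm10 (0.19 ± 0.17), Rrm1 (-0.06 ± 0.07), Gins2 (-0.16 ± 0.20), Pola1 (-0.10 ± 0.26), Tyms (0.03 ± 0.13) and Ccne1 (0.03 ± 0.17) did not pass.

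Among mitosis genes Cdk1 was at 6.53, 6.30 and 6.22 in wild type and 7.42, 7.19 and 7.11 in the mutant (0.89 ± 0.24, adjusted p = 0.0104). Aurkb was at 5.46, 5.36 and 5.31 against 6.36, 6.40 and 6.12 (0.92 ± 0.27, adjusted p = 0.0171). Both were separated without overlap, yet the call of Aurkb was lost without wild-type vehicle 3, mutant vehicle 1 or mutant vehicle 2 (adjusted p of 0.0546, 0.0523 and 0.0576). Bub1b, at 5.86, 5.82 and 5.85 and 6.71, 7.15 and 6.84, was higher in every mutant library but did not pass (1.06 ± 0.41, adjusted p = 0.0596), and neither did Top2a, at 8.86, 8.91 and 8.92 in the mutant (0.41 ± 0.17, adjusted p = 0.0869). Mki67 was at 8.78, 8.94 and 8.90 (0.73 ± 0.46) and Foxm1 at 6.72, 6.67 and 7.05 (0.55 ± 0.24), both above all wild-type vehicle values and neither past the threshold. The remaining 15 mitosis genes had differences from -0.33 (Aurka) to 0.75 (Ccna2), all but that of Aurka above 0.

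How many mitosis genes counted as higher on vehicle depended on the spread lent by other groups. Without library 2 of wild type on finasteride, which belongs to neither group compared but shares the estimate of spread, 6 were higher, where 15.7% of all genes were. With only the 2 vehicle groups in the fit 10 were, where 3552 of all 16895 genes were. These 6 and 10 of 21 mitosis genes exceed their backgrounds, unlike that over all 16 libraries. Without wild-type vehicle 3, mutant vehicle 1 or mutant vehicle 2 only 1 was, where 1746, 1840 and 1813 of all genes (16871 to 16920 tested) were. Over the 11 libraries 3 replication genes (Mcm5, Gins1 and Prim1) and 0 mitosis genes were higher, where 3.82% of all genes were. An unadjusted p under 0.05 was found in 7 and 2, with no share of all genes for that threshold. Quantile normalization gave 13 and 9 higher (17.1% of all genes).

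In the mutant, the share of these genes that fell on finasteride did not exceed that of all tested genes over all 16 libraries as deposited. It did in both lists after quantile normalization (8 and 12 of 21, where 27.9% of all genes fell), and for mitosis genes in a fit of the mutant groups alone (11 of 21, where 22.8% fell) and without library 2 of wild type on finasteride (6 of 21, where 23.2% fell). Of the replication genes 4 fell (Gins1, Mcm10, Rrm2 and Ccne1) and Mcm2 rose, and of the mitosis genes 2 fell (Top2a and Cdk1) and none rose, where 22.3% of all tested genes fell and 26.3% rose. The shares of 19.0% and 9.52% lower are at or under that background. Among the 8733 genes in the members' range of levels 13.4% fell and 34.8% rose. The replication share lower is above the first of these, and the mitosis share is under it. Medians were 0.10 for replication and -0.37 for mitosis, and -0.002 for all genes; the replication median changed sign to -0.31 under quantile normalization, and the mitosis median went to -0.92. At an unadjusted p under 0.05, 3 mitosis genes were lower and 0 higher, a count with no share of all genes beside it. B and plasma cell marker sums, at 6.20 to 6.54 on vehicle and 11.1 to 11.7 on finasteride, moved over the same libraries. Sums of T and NK cells (8 of 8 markers higher), macrophages (8 of 8) and smooth muscle (5 of 5) were also higher without overlap. So were those of endothelium (4 of 5), fibroblasts (4 of 7) and adipocytes (2 of 5).

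Top2a was at 8.86, 8.91 and 8.92 in the mutant on vehicle and 7.90, 8.05, 8.02, 7.85 and 8.12 on finasteride (-0.91 ± 0.16, adjusted p = 0.000247). All 5 treated libraries were below all 3 on vehicle, and Top2a alone among the members was lower as deposited, over the 11 libraries and after quantile normalization. Cdk1 was at 6.51, 6.67, 6.66, 6.51 and 6.67 on finasteride (-0.64 ± 0.21, adjusted p = 0.0226), also without overlap, and lost its call without mutant vehicle 1 or 2 (adjusted p = 0.0951 and 0.0526). Nusap1, at 6.78, 6.80 and 6.89 and 6.31, 6.30, 6.31, 6.18 and 6.43, and Kif20a, at 6.48, 6.80 and 6.55 and 6.28, 6.37, 6.31, 6.34 and 6.18, were lower in every treated library and did not pass (-0.52 ± 0.23 and -0.32 ± 0.15). Mki67 was at 8.25, 7.90, 8.37, 8.17 and 8.32 on finasteride, below its 3 vehicle values (-0.67 ± 0.41, adjusted p = 0.192). Foxm1 was at 6.19, 6.69, 6.27, 6.55 and 6.21 with overlap (-0.43 ± 0.21, adjusted p = 0.112). In 9 mitosis genes every treated mutant library was below every mutant vehicle library, as in 24.3% of all genes. The other mitosis genes differed by -0.76 (Ttk) to 0.11 (Plk1).

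Replication genes of the mutant moved both ways with the drug. Gins1 was at 6.31, 6.90, 6.27, 6.54 and 6.45 on finasteride, below its vehicle values (-0.63 ± 0.18, adjusted p = 0.00962). Mcm10 was at 6.52, 6.08 and 6.56 on vehicle and 5.79, 5.90, 5.82, 5.81 and 6.03 on finasteride (-0.51 ± 0.15, adjusted p = 0.0118). Rrm2 was at 8.46, 8.51 and 8.33 and 8.18, 7.51, 8.09, 7.95 and 7.90 (-0.51 ± 0.17, adjusted p = 0.0249). These 3 were separated without overlap, while Mcm2, at 8.68, 8.75 and 8.81 and 9.05, 9.21, 8.95, 9.02 and 8.79, rose with 1 overlapping treated library (0.26 ± 0.09, adjusted p = 0.0258). Mcm10 lost its call without mutant vehicle 1 or 3 (adjusted p = 0.0579 and 0.0694). Without mutant vehicle 1 or 2, Rrm2 (0.0694 and 0.0841) and Mcm2 (0.0987 and 0.0677) lost theirs. E2f1 was at 6.24, 5.91, 5.99, 6.03 and 5.99 (0.17 ± 0.34) and Pcna at 8.32, 8.28, 8.45, 8.41 and 8.25 (0.05 ± 0.10); neither passed, and both differences changed sign under quantile normalization. Mcm3 (0.49 ± 0.20), Pola1 (0.56 ± 0.23), Gins2 (0.22 ± 0.18) and Rrm1 (0.15 ± 0.07) were higher in every treated library and did not pass. The remaining replication genes differed by -0.43 (Ccne1, which fell) to 0.26 (Mcm6).

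Over the 11 libraries no replication gene and 1 mitosis gene, Top2a, was lower in the mutant on finasteride, where 9.09% of all genes were. Neither count exceeds that background. In limma 2 and 1 had an unadjusted p under 0.05, again without a share of all genes. Quantile normalization gave 8 and 12 lower and none higher (27.9% of all genes lower), and moved the share of all calls that were higher from 54.1% to 41.5%. Without mutant vehicle library 1, 1 replication and 1 mitosis gene were called, where 3845 of 16920 genes were higher and 3129 lower. Leaving out library 2 of that group gave 2 and 1, where 3615 of 16916 genes were higher and 2909 lower. These counts are under the shares of all genes. Without library 2 of wild type on finasteride, 4 replication genes were lower and 3 higher, and 6 mitosis genes were lower. In that fit 23.2% of all 16907 genes were lower and 4595 were higher.

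**Figure D4:**
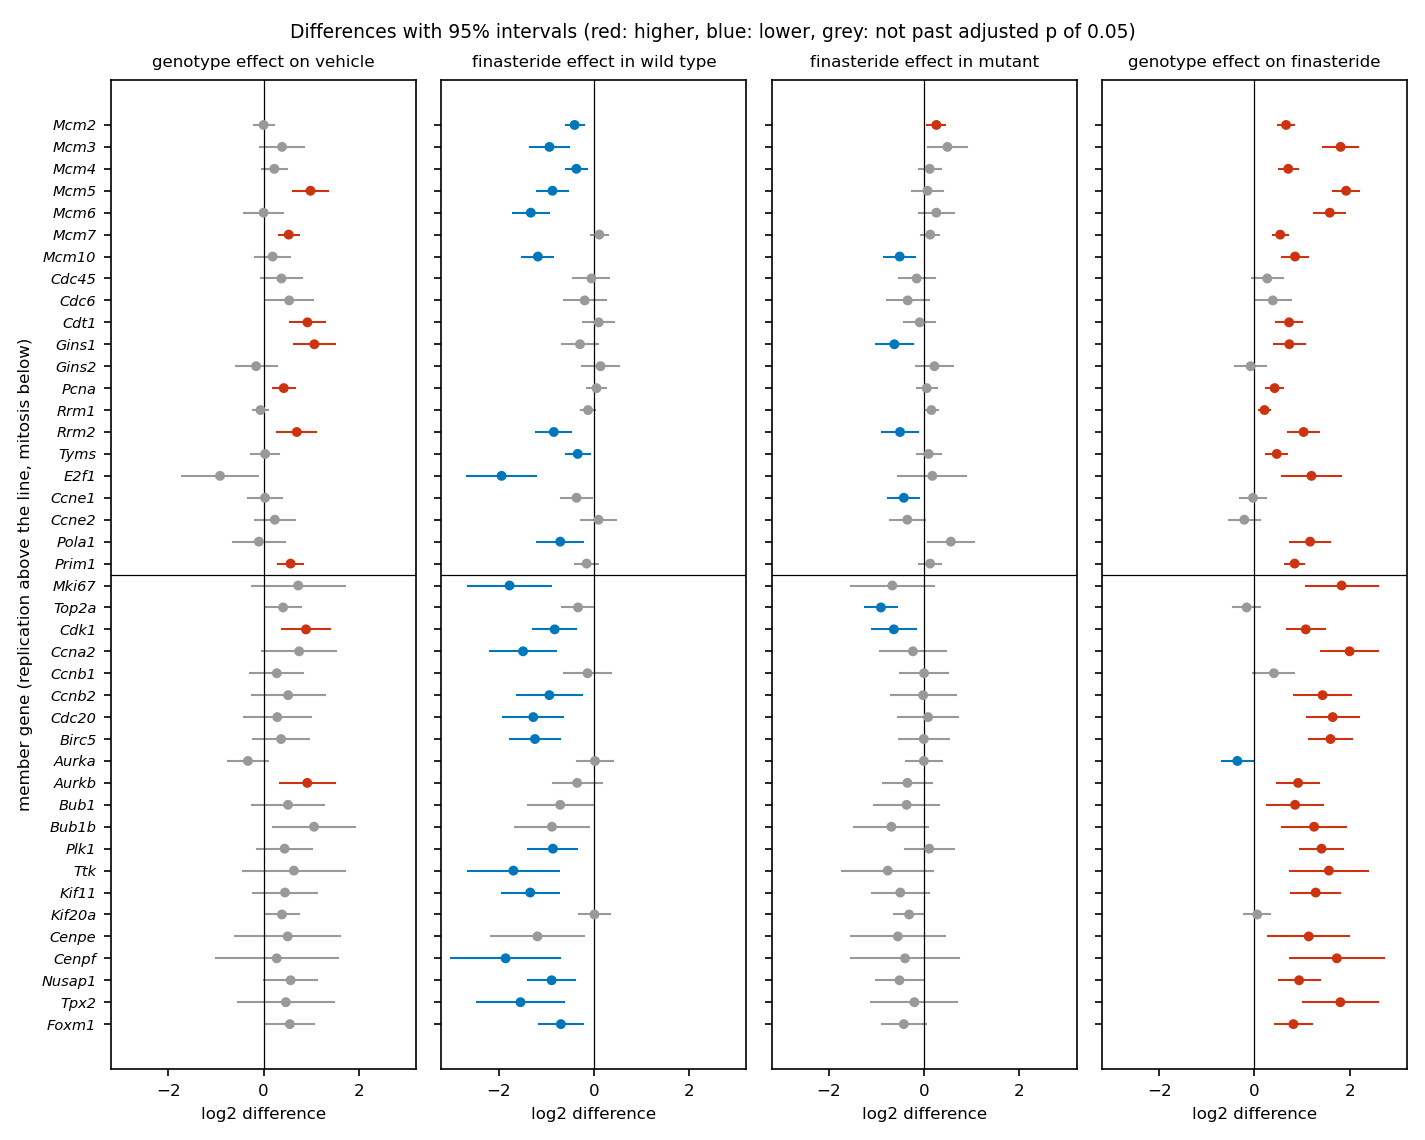
Log2 difference of each of the 42 members (rows, replication above the line and mitosis below) with its 95% interval in the 4 drug and genotype comparisons (x axes in log2 units; red is higher, blue lower and grey not past an adjusted p of 0.05). In treated wild type 23 points are blue and none is red, while between genotypes on finasteride 33 are red and 1, Aurka, is blue.

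On finasteride most members, 33 of 42, were higher in the mutant than in wild type. Of the replication genes 16 were higher and none lower, and of the mitosis genes 17 were higher and 1, Aurka, lower. Among all tested genes 33.9% were higher and 29.7% lower, against 76.2% and 81.0% of the members higher. Among the genes in the members' range of levels 42.3% were higher and 21.2% lower. Medians were 0.71 and 1.25, against 0.02 for all genes and 0.19 for the 8733 genes in the members' range of levels. In 14 replication and 9 mitosis genes every mutant library was above every wild-type library, where 21.8% of all genes were. The low values of treated wild type that enter here are those already described, and B and plasma cell marker sums were 6.08 to 6.89 in wild type, with 4 of the 6 markers under the filter, against 11.1 to 11.7 in the mutant. Adipocyte marker sums were 6.13 to 9.64 in wild type and 10.4 to 10.7 in the mutant. Higher in the mutant too were 8 of 8 T and NK cell markers and 8 of 8 macrophage markers.

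Mcm5 was at 7.65, 8.16, 7.88, 7.85 and 7.80 in the treated mutant, over 1 log2 unit above each treated wild-type value (1.92 ± 0.13, adjusted p = 1.05e-08). Mcm3 was at 6.11, 6.30, 5.30, 5.57 and 6.24 in wild type and 7.51, 7.89, 7.86, 7.58 and 7.72 in the mutant on finasteride (1.81 ± 0.17, adjusted p = 2.74e-07). Mcm6 was at 8.54, 9.36, 8.69, 8.75 and 9.02 in the mutant (1.58 ± 0.15, adjusted p = 3.53e-07). Thus 3 subunits of the same ring differed by 1.58 to 1.92, while Mcm4, Mcm2 and Mcm7 differed by 0.71 ± 0.09, 0.66 ± 0.08 and 0.54 ± 0.08, all 6 without overlap. Prim1 was at 7.02, 7.16, 6.84, 6.83 and 7.001 against 7.84, 7.92, 7.70, 7.69 and 7.91 (0.84 ± 0.10, adjusted p = 2.32e-06). Also higher were Pola1 (1.17 ± 0.20), E2f1 (1.19 ± 0.29), Rrm2 (1.03 ± 0.15), Mcm10 (0.85 ± 0.13), Cdt1 (0.73 ± 0.13), Gins1 (0.73 ± 0.16), Tyms (0.47 ± 0.10), Pcna (0.42 ± 0.09) and Rrm1 (0.21 ± 0.06). Cdc6 (0.38 ± 0.18), Cdc45 (0.27 ± 0.15), Ccne2 (-0.21 ± 0.15), Gins2 (-0.08 ± 0.16) and Ccne1 (-0.03 ± 0.13) did not pass.

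Birc5 was at 5.52, 6.15, 5.81, 6.17 and 6.26 in the treated mutant, above all treated wild-type values including library 2 (1.60 ± 0.22, adjusted p = 1.23e-05). Ccna2 was at 6.45, 6.46, 6.36, 6.60 and 6.67 (1.995 ± 0.28, adjusted p = 1.96e-05), the largest difference among the mitosis genes. Plk1 was at 4.20, 5.03, 4.22, 5.09 and 4.32 against 6.26, 6.28, 5.52, 5.86 and 5.98 (1.41 ± 0.21, adjusted p = 3.28e-05). Cdc20 was at 4.46, 6.22, 5.07, 4.67 and 4.54 against 6.60, 6.86, 6.64, 6.67 and 6.40 (1.64 ± 0.26, adjusted p = 5.19e-05). The genotypes were separated in all 4 of these genes. Mki67 (1.83 ± 0.36), Tpx2 (1.802 ± 0.37), Cenpf (1.73 ± 0.47), Ttk (1.56 ± 0.39), Ccnb2 (1.43 ± 0.28), Kif11 (1.28 ± 0.24), Bub1b (1.25 ± 0.32), Cenpe (1.14 ± 0.40), Cdk1 (1.08 ± 0.19), Nusap1 (0.94 ± 0.20), Aurkb (0.92 ± 0.21), Bub1 (0.85 ± 0.28) and Foxm1 (0.82 ± 0.19) were higher as well. Aurka was lower (-0.36 ± 0.15, adjusted p = 0.0487), also after quantile normalization. Its call was lost over the 11 libraries, with no filter, with only the groups compared in the fit, and without library 2 of wild type on finasteride. Ccnb1 (0.41 ± 0.20), Top2a (-0.16 ± 0.14) and Kif20a (0.06 ± 0.13) did not pass.

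Over the 11 libraries the same 16 replication genes and 13 of the 17 mitosis genes were higher, where 22.3% of all genes were. Quantile normalization left 11 and 11 higher (26.3% of all genes) and made 4 replication and 3 mitosis genes lower, with medians of 0.26 and 0.59, and took the share of all calls that were higher from 53.3% to 41.8%. Higher under all 3 were 11 replication genes (Mcm2, Mcm3, Mcm4, Mcm5, Mcm6, Mcm7, Pcna, Rrm1, Rrm2, Pola1 and Prim1) and 10 mitosis genes (Mki67, Cdk1, Ccna2, Ccnb2, Cdc20, Birc5, Plk1, Ttk, Kif11 and Tpx2). The share of all genes higher under all 3 is not given, so these counts only name genes.

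The response to finasteride differed between the genotypes in some members. The interaction is the drug difference in the mutant minus that in wild type. It was above 0 in 10 replication genes and below in none, and above 0 in 4 mitosis genes and below in 1, Top2a. Among all genes 30.2% were above and 26.6% below, so the replication share of 47.6% is somewhat over the background, and 39.1% of genes in the members' range of levels were above; the mitosis share of 19.0% is under it. Medians of 0.28 for replication and 0.63 for mitosis genes turned to -0.27 and -0.37 under quantile normalization, with an all-gene median that went from -0.002 to -0.16. The direction over either list therefore depends on the scaling.

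Of the replication genes 4 had an interaction above 0 as deposited, over the 11 libraries and after quantile normalization, a count with no share of all genes beside it. They were Mcm6 (1.58 ± 0.25, adjusted p = 8.94e-05), Mcm3 (1.42 ± 0.28, adjusted p = 0.000527), Mcm2 (0.66 ± 0.12, adjusted p = 0.000415) and E2f1 (2.11 ± 0.48, adjusted p = 0.00161). In each of them finasteride lowered the gene in wild type, and in the mutant Mcm2 rose while Mcm3, Mcm6 and E2f1 did not pass. Mcm3, for example, was at 6.98, 6.75 and 6.78 and 6.11, 6.30, 5.30, 5.57 and 6.24 in wild type on vehicle and finasteride, and at 7.23, 7.29 and 7.16 and 7.51, 7.89, 7.86, 7.58 and 7.72 in the mutant. Mcm2 was at 8.69, 8.77 and 8.78 and 8.51, 8.28, 8.36, 8.25 and 8.32 in wild type. The interactions of Mcm5 (0.94 ± 0.21), Pola1 (1.27 ± 0.32), Mcm4 (0.48 ± 0.15), Mcm10 (0.66 ± 0.22), Rrm1 (0.27 ± 0.09) and Tyms (0.43 ± 0.17) passed as deposited and not over the 11 libraries, and those of Mcm10 and Tyms changed sign under quantile normalization.

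Mitosis genes with an interaction above 0 were Birc5 (1.23 ± 0.35, adjusted p = 0.00805), Cdc20 (1.35 ± 0.42, adjusted p = 0.0126), Plk1 (0.96 ± 0.34, adjusted p = 0.0256) and Ccna2 (1.25 ± 0.46, adjusted p = 0.0308), none of which passed after quantile normalization, where Plk1 changed sign. Top2a had an interaction below 0 (-0.57 ± 0.22, adjusted p = 0.0368) that missed the threshold without any 1 of 9 libraries (adjusted p of 0.0520 to 0.0959), all 3 of the mutant on vehicle, 1 and 2 of wild type on vehicle, 2 and 3 of wild type on finasteride and 1 and 4 of the mutant on finasteride. Ccna2 missed it without any 1 of 7 (0.0509 to 0.0781), 1 and 3 of wild type on vehicle, 4 and 5 of wild type on finasteride and the 3 of the mutant on vehicle, and Plk1 without wild-type vehicle 1 or 2 (0.0632 and 0.0613). Mki67 (1.10 ± 0.58) and Foxm1 (0.26 ± 0.30) did not pass, and the interaction of Pcna was -0.00137 ± 0.139. Without library 2 of wild type on finasteride 11 mitosis genes and 10 replication genes had an interaction above 0, where 31.6% of all genes did. Without wild-type vehicle 1 only 2 mitosis genes were called, and without wild-type vehicle 2 or any 1 mutant vehicle library 3 were. Of all 16888 genes in the first of these fits 4698 were above and 3894 below 0. In the others, with 16869 to 16921 genes, 4732 to 4836 were above and 3956 to 4228 below. Over the 11 libraries 4 replication genes and 1 mitosis gene, Plk1, had one above 0, where 17.3% of all genes did. After quantile normalization 5 replication genes were above and 7 below 0, and 0 mitosis genes were above and 6 below, where 22.4% of all genes were above and 33.2% below; the share of all calls above 0 went from 53.2% to 40.3%.

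Set against each other within a library, replication and mitosis genes kept different distances from wild type on vehicle in each group. The replication minus mitosis difference of the centred averages was 0.49 ± 0.51 (SD, n = 5) in wild type on finasteride, where library 2 was at -0.35 and the other 4 between 0.50 and 1.03. It was -0.22 ± 0.12 (SD, n = 3) in the mutant on vehicle and 0.11 ± 0.06 (SD, n = 5) in the mutant on finasteride. Replication averages of the mutant were 0.28 ± 0.02 (SD, n = 3) on vehicle and 0.27 ± 0.01 (SD, n = 5) on finasteride. Mitosis averages of the mutant were 0.51 ± 0.12 (SD, n = 3) on vehicle and 0.16 ± 0.05 (SD, n = 5) on finasteride, and the 5 treated values (0.11 to 0.25) lay below the 3 on vehicle (0.39 to 0.62). Across the 16 libraries, which share these groups, the 2 averages had a Pearson r of 0.90 and a Spearman rho of 0.86, as a description. After each group's mean was removed, r was 0.83, and -0.43 once library 2 of wild type on finasteride was left out, so the relation within groups rests on that library.

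Other genes of the same pathways, listed by role and not by how they moved, were tested over all 16 libraries on the values as deposited, and neither the 11 libraries nor another scaling was tried for them. In treated wild type, where 21.9% of all genes fell and 17.9% rose, 31 of 59 tested other mitosis genes fell and 2 rose, among them the kinetochore gene Spc25 (-2.38 ± 0.35), the kinase gene Melk (-1.42 ± 0.26) and the cytokinesis gene Anln (-1.05 ± 0.19). Of 42 other replication factors 12 fell and 4 rose, including the initiation kinase gene Cdc7 (-0.81 ± 0.14), the fork protection gene Tipin (-0.76 ± 0.12) and Topbp1 (-0.63 ± 0.09), which acts in initiation and checkpoint signalling. Of 18 genes of nucleotide supply and chromatin assembly 7 fell and 2 rose, among them both Chaf1a (-0.89 ± 0.17) and Chaf1b (-0.92 ± 0.14) of the histone chaperone CAF-1, and Uhrf1 (-0.94 ± 0.18), needed for maintenance of DNA methylation. Shares lower were 52.5% of the other mitosis genes and 38.9% of this list, and nearer the background in the other 4 lists, at most 28.6%. Of 20 checkpoint and recombination genes 3 fell and 3 rose, with Wee1, the kinase that restrains Cdk1, up by 0.84 ± 0.15. Of 25 tested G1 cyclins, kinases, pocket proteins and E2F factors 6 fell and 4 rose, with cyclin D2, Ccnd2, at -0.77 ± 0.10 and the repressor E2f7 at -1.12 ± 0.22. Of 14 cell cycle inhibitors 3 fell and 3 rose, with Tob1 (0.88 ± 0.12) and Cdkn1a (0.56 ± 0.09) up and Cdkn3 down (-1.08 ± 0.21).

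Between genotypes on finasteride, where 33.9% of all genes were higher and 29.7% lower, 48 of the 59 other mitosis genes were higher and 3 lower, and 23 of 42 other replication factors were higher and 6 lower. Timeless, the partner of Tipin at the fork, differed by 1.67 ± 0.15, and the DNA ligase gene Lig1 by 0.97 ± 0.09. Uhrf1 (1.70 ± 0.16), Chaf1a (1.43 ± 0.15) and Chaf1b (1.24 ± 0.12) were among 9 of 18 higher, with 1 lower, in nucleotide supply and chromatin assembly. In checkpoint and recombination 12 of 20 were higher and 4 lower, with Wee1 lower at -1.64 ± 0.13. Of the 25 genes of the G1 list 7 were higher and 8 lower, shares near the background, with the D cyclin genes Ccnd1 (1.999 ± 0.20) and Ccnd2 (1.14 ± 0.09) and the repressor E2f8 (2.39 ± 0.37) higher. Of the 14 inhibitors 8 were higher and 2 lower, with Cdkn2c, an inhibitor of the kinases that pair with D cyclins, at 1.64 ± 0.15 and Tob1 at -0.98 ± 0.10.

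In the mutant on vehicle 14.3% of all genes were higher and 17.5% lower than in wild type. Other mitosis genes counted 13 higher and 2 lower of 59, with the central spindle motor Kif23 at 1.76 ± 0.30 and Anln at -2.12 ± 0.22. Other replication factors counted 8 higher and 1 lower of 42, with Timeless at 1.09 ± 0.19, Lig1 at 0.72 ± 0.12 and Topbp1 lower at -0.45 ± 0.10. Nucleotide supply and chromatin assembly counted 8 and 2 of 18, checkpoint and recombination 7 and 1 of 20, the G1 list 8 and 2 of 25, and inhibitors 2 and 0 of 14. Uhrf1 (1.199 ± 0.21), the recombination gene Rad54l (1.37 ± 0.16) and Tob1 (0.97 ± 0.14) were among the higher ones.

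With finasteride in the mutant 26.3% of all genes rose and 22.3% fell. Other mitosis genes counted 3 higher and 7 lower of 59, under both shares, with the spindle motor Kif15 at -1.39 ± 0.22 and the phosphatase gene Cdc25b, which activates Cdk1, at 1.16 ± 0.21. Other replication factors counted 6 higher and 5 lower of 42, with Dbf4, the partner of Cdc7, at -0.90 ± 0.13. Nucleotide supply and chromatin assembly counted 3 and 3 of 18, checkpoint and recombination 1 and 7 of 20, the G1 list 2 and 9 of 25, and inhibitors 4 and 3 of 14. The shares lower in the checkpoint and G1 lists were above that of all genes. Ccnd2 and Tob1 responded in opposite directions in the 2 genotypes. In the mutant Ccnd2 rose by 0.83 ± 0.10 and Tob1 changed by -1.08 ± 0.12, with interactions of 1.60 ± 0.15 and -1.96 ± 0.17 (limma adjusted p = 7.91e-07 and 5.01e-07). Interactions were above 0 in 30.2% and below in 26.6% of all genes. In the lists they counted 13 above and 4 below 0 for other replication factors, 17 and 7 for other mitosis genes, 6 and 2 for nucleotide supply and chromatin assembly, 2 and 6 for checkpoint and recombination, 4 and 8 for the G1 list, and 5 and 2 for inhibitors.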

How the data were processed

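RNA was taken from 16 prostate libraries, extracted, poly-A selected and sequenced with TruSeq kits on a HiSeq2000, per the labels' protocols. The submitters' processing notes name CASAVA 1.8.2, TopHat, Cufflinks, DESeq, DESeq2 and build mm9, with no roles. The authors deposited 1 table of normalized log2 expression. Base 2 was inferred, because values taken out of log2 give similar library totals, and read depth is unknown, so no counting interval is given. Groups came from the labels. The mutated gene and its values are not reported here.

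The 4 group means were fitted with limma 3.58.1 (R 4.3.3) and its mean-variance trend option, to the 16895 genes whose mean after taking values out of log2 was at least 10. Benjamini-Hochberg adjustment covered those genes in each of 5 comparisons, at a threshold of 0.05. The script was tested on simulated data. Alternatives were quantile normalization, a pseudocount of 8, no filter, a mean of at least 50, no variance trend, only the groups compared, 11 libraries, and leaving out each library.

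The 42 members, the pathway and marker lists and the rule for named genes were chosen with earlier results of these data known. Per-library values are given for E2f1, Pcna, Mki67, Top2a, Foxm1 and the 4 members of each kind with the lowest p in each comparison. Up to 3 members with the lowest p of each pathway list could be named per comparison, and the text names a subset. Promoter windows came from RefSeq (GRCm38.p6), not from build mm9, and serve only as sequence.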

Additional observations from a re-analysis of the deposited data

Results flagged for a closer look

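In wild type on finasteride, library 2 lay apart from the other 4 libraries by Dixon's 95% criterion in 4 mitosis genes, on the high side: Mki67 (8.24), Birc5 (5.22), Bub1 (4.92) and Cenpf (6.72). In the mutant on finasteride, library 2 lay apart on the low side in Ccne1 (4.86). Only the 2 groups of 5 libraries were checked, over 84 pairs of gene and group, and chance marks about 1 in 20 groups.

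The drug response differed between genotypes by the interaction test in 15 members, with 33.3% of the 42 above 0 and 2.38% below. Among all tested genes 30.2% were above and 26.6% below, so the members' share above 0 was near that of all genes and their share below was under it. By list, 47.6% of replication and 19.0% of mitosis genes were above 0. The log2 interaction was 2.11 for E2f1, 1.58 for Mcm6, 1.42 for Mcm3, 1.27 for Pola1, 0.94 for Mcm5, 0.66 for Mcm2, 0.66 for Mcm10, 0.48 for Mcm4, 0.43 for Tyms and 0.27 for Rrm1. Among mitosis genes it was 1.35 for Cdc20, 1.25 for Ccna2, 1.23 for Birc5, 0.96 for Plk1 and -0.57 for Top2a. After quantile normalization Mcm10, Tyms and Plk1 changed sign.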

How the results depend on the processing

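No paired analysis was possible because the running numbers in the sample titles are shared by no 2 groups. Read depth is unknown, and low values that look shrunken limit what weakly expressed members can show.

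Counts of members called, replication then mitosis, that moved by over 1.5 times were these. Over the 11 libraries they were 3 and 0 for genotype on vehicle, 4 and 1 for finasteride in wild type, 0 and 1 for finasteride in the mutant, and 4 and 1 for the interaction; the cause was not tested beyond having fewer samples. Quantile normalization gave 13 and 9 for genotype on vehicle and 8 and 12 for finasteride in the mutant, and a replication minus mitosis difference of 0.20 in the mutant on finasteride. Fitting only the groups compared gave 10 mitosis genes for genotype on vehicle and 11 for finasteride in the mutant. A mean of at least 50 left 14 mitosis genes tested, and 3 had an interaction, where 3495 of 13141 genes were above and 4266 below 0. Shares of all genes under the other alternatives are given with each result.

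Leaving out 1 library at a time gave 7 to 8 replication and 1 to 6 mitosis genes for genotype on vehicle, 7 to 11 and 11 to 17 for finasteride in wild type, 1 to 7 and 1 to 6 for finasteride in the mutant, 16 to 18 and 17 to 18 for genotype on finasteride, and 8 to 10 and 2 to 11 for the interaction. Of the 16836 to 16935 genes tested in these fits, 1744 to 2921 were higher and 2184 to 3443 lower for genotype on vehicle. For finasteride these ranges were 1936 to 3541 and 2610 to 4212 in wild type, and 3615 to 4831 and 2909 to 4202 in the mutant. They were 5289 to 6041 and 4643 to 5262 for genotype on finasteride, and 4670 to 5460 and 3894 to 4903 for the interaction. The highest mitosis counts for genotype on vehicle, both drug comparisons and the interaction came without library 2 of wild type on finasteride. The replication minus mitosis difference ranged from 0.36 to 0.70 in wild type on finasteride, -0.28 to -0.16 in the mutant on vehicle and 0.099 to 0.136 in the mutant on finasteride.

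Among the genes recomputed under every alternative, 16 values, of Pcna, E2f1, Foxm1 and Plk1, changed sign, the cause not tested; the interactions of Mcm10 and Tyms also did so with quantile normalization. With quantile normalization E2f1 (-0.40) and Pcna (-0.0837) did so for finasteride in the mutant, and Foxm1 (-0.68) and Plk1 (-0.0881) for the interaction. Pcna also did so for finasteride in the mutant over the 11 libraries (-0.0647) and without mutant vehicle 3 (-0.0073), and for finasteride in wild type without wild-type vehicle 1 (-0.0155). Its interaction was 0.0697 without wild-type vehicle 1 and 0.00435 to 0.0333 without 8 other libraries (0.0164, 0.0197, 0.0333, 0.0258, 0.0329, 0.00435, 0.0137 and 0.0209); the lowest on leaving out 1 library was -0.0659, and it was -0.27 with quantile normalization and -0.14 over the 11 libraries. On leaving out 1 library its difference reached 0.12 for finasteride in wild type, which was 0.19 with quantile normalization, and 0.0885 in the mutant. Of the gene values under the alternatives, 1258 kept their direction and side of the threshold, 59 lost the call and 30 gained one.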
